A study of Mus musculus with 24 samples.

Results

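Neural retina that had been dissected out of mouse organoids and kept in static suspension was compared between its latest sampled day of differentiation, day 28, and day 22. The organoids were grown from embryonic stem cells, and the dissected static culture is called SSCd. Of the 24 libraries of the series, 6 belong here: SSCd D28 replicates 1, 2 and 3 and SSCd D22 replicates 1, 2 and 3, chosen by the culture and day in their titles, with every gene of the table included. Both groups came from optic cups cut from intact organoids at D10 and given taurine, 9-cis retinal and insulin-like growth factor 1. Non-essential amino acids, B27 without vitamin A and serum were added from D18, so that the medium was the same at both days. No group carried a treatment or a mutation. The stem cells were called wild type, and came from mice carrying an Nrl-GFP transgene, which marks rods, or from the R1 clone; which clone gave which sample is not given in the sources used here. SSCd D18, with 3 libraries, served as the earlier point of the same culture. The late steps of 2 other cultures served for comparison: dissected retina in a rotating-wall bioreactor (RWB, 3 libraries at D25 and 3 at D22) and intact organoids in static suspension (SSCi, 3 at D32 and 2 at D25), where the amino acids, B27 and serum were added from D26.

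In the mouse retina, ganglion cells, horizontal cells, cones and many amacrine cells leave the cell cycle early, and rods, bipolar cells and Müller glia are the last classes to be made from dividing progenitors. Notch signalling keeps progenitors undifferentiated through the Hes factors, while proneural factors such as Neurog2 drive them into neurogenesis. A newborn rod first expresses the factors that fix its identity and only later the transduction cascade, the outer segment and the ribbon synapse. Bipolar cells carry the rod and cone signals onward, and the ON type receives them through the glutamate receptor Grm6.

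The 6 libraries held between 13900055 and 17271602 estimated counts. The mitochondrially encoded share of the counts was 3.69%, 3.77% and 2.87% at D28, against 8.26%, 3.41% and 3.25% at D22, so that D22 replicate 1 stood apart. Replicate 3 had the lowest summed CPM (counts scaled to library size) of rod transduction genes and the highest of amacrine genes at both days. Retinal identity genes were present in every library: the eye field factors Pax6 and Six3 were at 347 to 674 and 61.0 to 86.0 CPM at D28, against 405 to 721 and 82.6 to 115 CPM at D22, and the photoreceptor factor Crx was at 1125 to 1779 CPM at D28, against 803 to 1839 CPM at D22. In such bulk samples, fewer cells of a type and less RNA per cell cannot be told apart.

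Most genes of the cell division and neurogenesis lists were called lower at D28 than at D22, and most of the rod phototransduction list and 9 of 26 bipolar genes were called higher. Of 16792 genes tested, 1351 (8.05%) were called at an adjusted p under 0.05 by edgeR's quasi-likelihood test, 503 (3%) higher at D28 and 848 (5.05%) lower, while 3677 had an unadjusted p under that value. The count ranged between 643 and 1330 with a single library left out and was lowest without D22 replicate 2; without either D28 replicate 1, 2 or 3 it was 917, 927 or 920, and without D22 replicate 1 it was 988. The median log2 fold change of all genes tested was -0.003, and each list below is given beside it. Lack of overlap between days, here and below, only describes the libraries and adds no support to a call. Its share over all genes tested is not given. Of the 980 genes called with no overlap between the days and with log2 CPM averaging 3 or more over the 6 libraries, the 12 with the highest log2 fold change included the rod G protein subunit Gnat1 (3.49), the photoreceptor calcium channel Cacna1f (2.66), the secreted factor Ndnf (2.57) and the nuclear protein Trnp1 (2.43). Ndnf had 57.3, 77.0 and 88.9 CPM at D28, against 13.3, 9.98 and 14.2 CPM at D22. The 5 lowest were Fgf15, a growth factor of retinal progenitors, Foxn4, a factor of early amacrine and horizontal fate, the Notch effectors Hes5 and Heyl, and Aspm, a spindle protein, at -2.86 or lower.

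**Figure D1:**
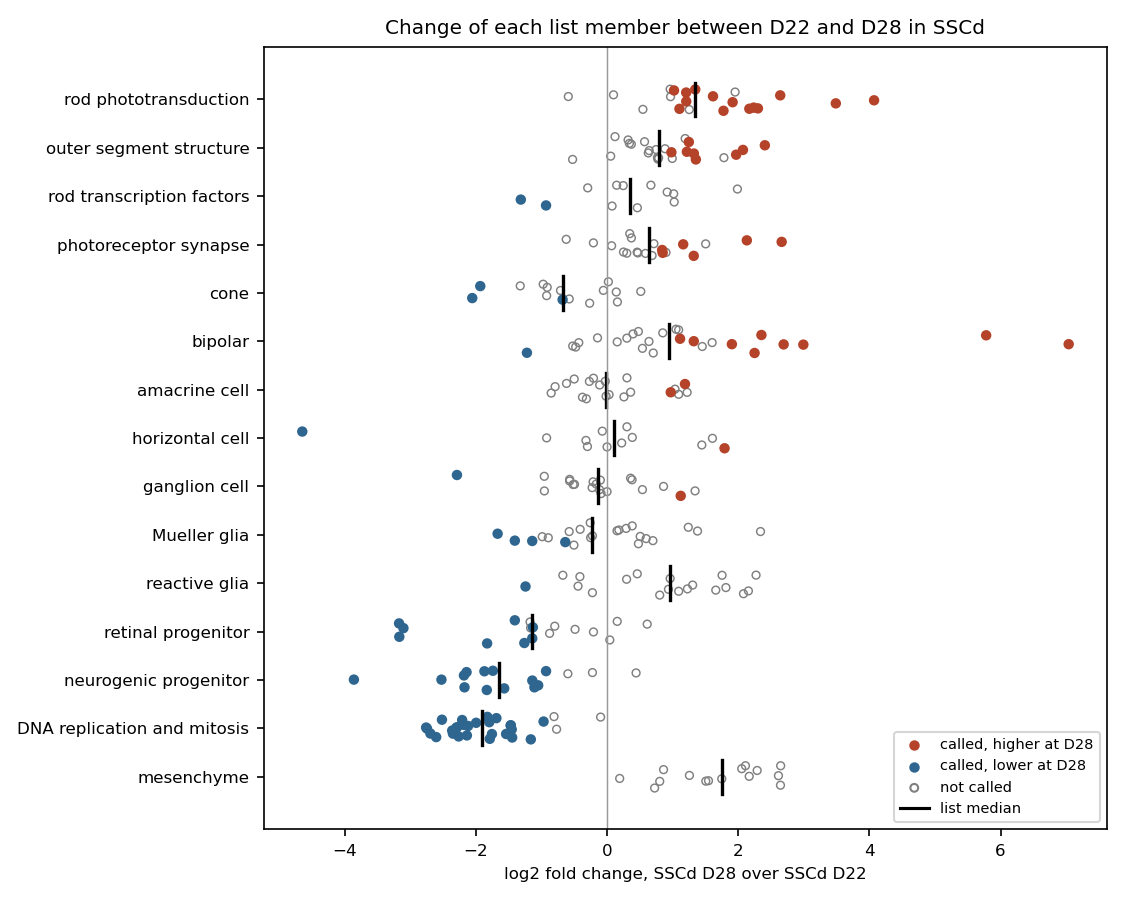
Each point is a member of a gene list at its log2 fold change, SSCd D28 over SSCd D22, with lists down the page, called members filled and the list median as a bar. All 30 members of the DNA replication and mitosis list lie below 0, and 20 of 21 rod phototransduction members lie above it.

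Rod phototransduction genes, which turn light into an electrical signal, were mostly higher at D28. Of 21 genes tested, 14 were higher, 0 were lower and 7 were not called, with a median log2 fold change of 1.35. Gnat1 (chr9:107674474-107679712, GRCm38), the alpha subunit of rod transducin, had 137, 110 and 26.7 CPM at D28, against 12.3, 7.18 and 4.96 CPM at D22. Its log2 fold change was 3.49 (SE 0.52, adjusted p = 0.00034), and the lowest D28 library lay above the highest D22 library. Gucy2f, a photoreceptor guanylate cyclase that remakes cGMP, had 5.42, 4.42 and 0.752 CPM at D28, against 0.223, 0.326 and 0.0636 CPM at D22, a log2 fold change of 4.07 (SE 0.78, adjusted p = 0.0025) that rests on 9 counts at D22. The other guanylate cyclase, Gucy2e, averaged 249.7 ± 59.7 CPM at D28 and 116 ± 26.9 CPM at D22 (SD, n = 3 each), with no overlap (adjusted p = 0.028).

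Slc24a1 (chr9:64922861-64951607, GRCm38), the rod exchanger that carries calcium out of the outer segment, had 215, 161 and 64.4 CPM at D28, against 49.8, 27.9 and 15.9 CPM at D22. That was a log2 fold change of 2.24 (SE 0.38, adjusted p = 0.00098) with no overlap, although replicate 3 was lowest at both days. Both subunits of the rod cGMP-gated channel were also called: Cnga1 averaged 265 ± 154 CPM at D28 and 53.9 ± 39.6 CPM at D22 (SD, n = 3 each), and Cngb1 averaged 480 ± 318 CPM at D28 and 127 ± 108 CPM at D22, and for each of them D28 replicate 3 lay within the range of the D22 libraries. Gnb5, which with Rgs9 and Rgs9bp shuts transducin off, had 295, 248 and 186 CPM at D28, against 146, 90.3 and 79.1 CPM at D22 (log2 fold change 1.21, SE 0.23, adjusted p = 0.0023). Rgs9 and Rgs9bp were called as well, at log2 fold changes of 1.21 and 1.35.

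Several of the 7 members not called were abundant at both days. Sag, the arrestin of rods, had 1697, 1427 and 494 CPM at D28, against 1940, 1094 and 342 CPM at D22, and Pdc, which binds the transducin beta and gamma subunits, averaged 3080 ± 1176 CPM at D28 and 2107 ± 1393 CPM at D22 (SD, n = 3 each). Their adjusted p values were 0.93 and 0.56, and the days overlapped in both. Pde6b, a catalytic subunit of the phosphodiesterase, averaged 1087 ± 443 CPM at D28 and 555 ± 202 CPM at D22, with an adjusted p of 0.15. The inhibitory subunit Pde6g had 920, 682 and 331 CPM at D28, against 351, 148 and 65.4 CPM at D22, and was called at a log2 fold change of 1.78 (SE 0.46, adjusted p = 0.020). At D18 these 4 genes had averaged 20.7, 189, 2.46 and 4.69 CPM, and Gnat1, Cnga1 and Slc24a1 had averaged 2.81, 0.362 and 0.516 CPM.

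The count of 14 depended on single libraries. It was 5 without D22 replicate 2, 6 without D22 replicate 3, D28 replicate 1 or D28 replicate 2, and 15 without D22 replicate 1 or D28 replicate 3, and it was 5 in a fit of the 6 libraries alone. Gnat1, Gucy2f, Gnb5, Gnb1 and Slc24a1 kept their calls whichever single SSCd library was left out. The calls of Cnga1, Cngb1, Pde6g and Gucy2e were lost without D22 replicate 2 or 3 or D28 replicate 1 or 2, that of Rgs9 without D22 replicate 2 or 3 or D28 replicate 1, and that of Rgs9bp without replicate 2 of either day.

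**Figure D2:**
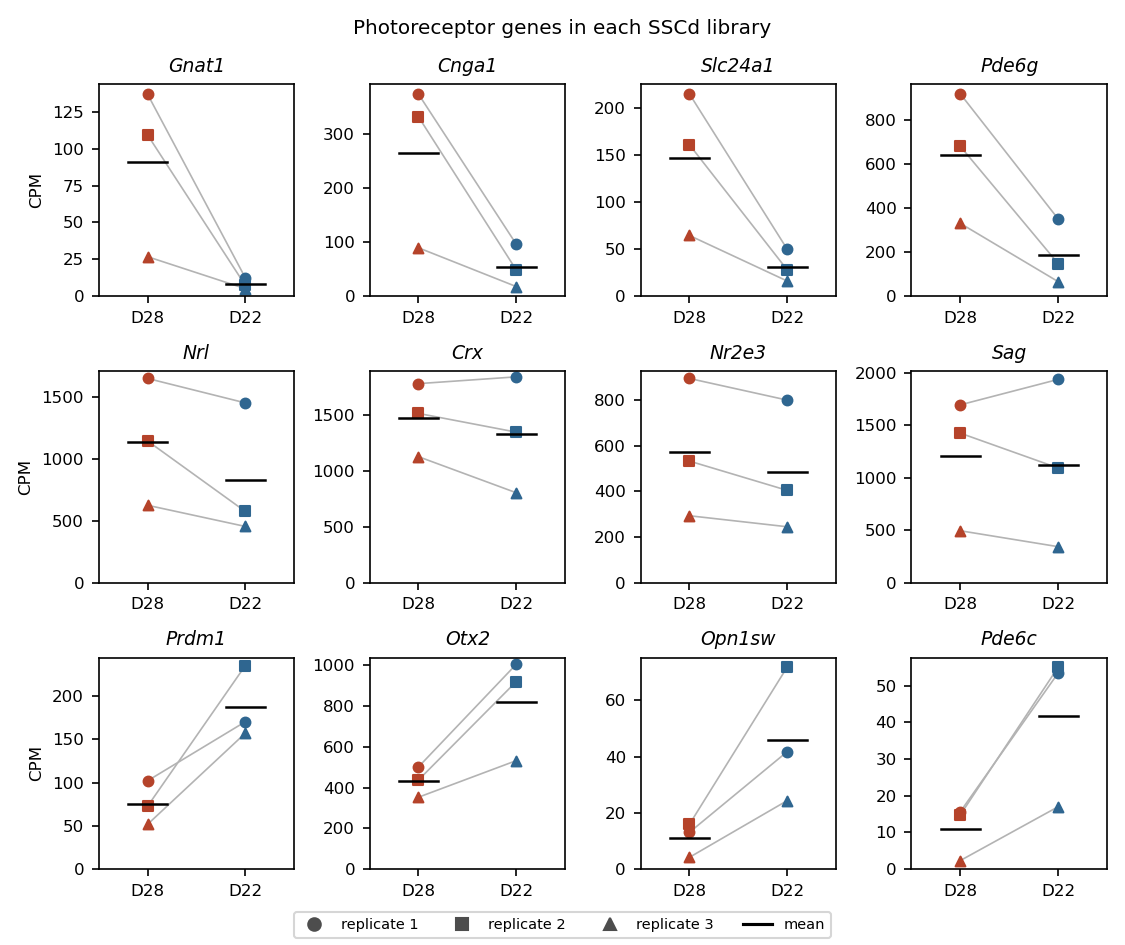
CPM of 12 photoreceptor genes in each SSCd library, D28 at the left of each panel and D22 at the right; lines join libraries of the same replicate number, marked by shape, and bars are means. The transduction genes of the top row, and also Nrl and Nr2e3, are higher at D28 in all 3 pairs. Prdm1, Otx2, Opn1sw and Pde6c are lower in all 3 pairs. Cnga1 and Pde6g of the top row, and Nrl, Crx, Nr2e3 and Sag, overlap between the days.

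The 250 bases before the start of a gene could be read for 8 of these 14 genes from the RefSeq promoter table (GRCm38.p6), each from the gene's most upstream start. The letters TAATCC, the core recognised by the homeodomain factors Crx and Otx2, stood on one strand or the other in 5 of the 8 windows (62.5%), those of Cnga1, Cngb1, Gnb5, Gucy2e and Gucy2f. Over the called genes of the rod phototransduction and outer segment lists together, 6 of 14 windows held them (42.9%). They stood in 6.37% of all 27025 promoters listed, and in 5.36% of the 12213 read for tested genes. A pair of windows is shown because each holds the letters more than once: Cngb1 (chr8:95306586-95306835, minus strand) and Gucy2f (chrX:142196937-142197186, minus strand). They run 5′ to 3′ along the gene's strand and end at the base before the start, and capitals mark TAATCC or its reverse complement GGATTA. The matches begin 58 and 25 bases before the start in Cngb1 and 84 and 59 bases before it in Gucy2f. A match describes letters and not binding.
Cngb1: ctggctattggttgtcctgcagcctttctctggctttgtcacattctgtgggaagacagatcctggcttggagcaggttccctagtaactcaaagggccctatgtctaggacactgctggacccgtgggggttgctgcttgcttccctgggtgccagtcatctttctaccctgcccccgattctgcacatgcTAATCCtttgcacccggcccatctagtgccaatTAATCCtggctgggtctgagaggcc
Gucy2f: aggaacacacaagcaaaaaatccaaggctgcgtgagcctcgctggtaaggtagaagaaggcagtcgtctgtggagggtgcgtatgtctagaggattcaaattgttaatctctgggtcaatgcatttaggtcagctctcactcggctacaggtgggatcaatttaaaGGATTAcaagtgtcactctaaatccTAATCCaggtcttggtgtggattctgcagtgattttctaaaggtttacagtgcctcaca

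None of the transcription factors that set rod identity was called higher. Of 12 tested, 0 were higher and 2 lower, with a median log2 fold change of 0.36. Nrl, the leucine zipper factor that rods require, had 1650, 1144 and 624 CPM at D28, against 1452, 574 and 453 CPM at D22. Nr2e3, which represses cone genes in rods, had 897, 534 and 293 CPM at D28, against 802, 405 and 245 CPM at D22. Neither was called, with adjusted p values of 0.54 and 0.77, and Crx, the homeodomain factor of all photoreceptors, had one of 0.78. At D18 these 3 genes had averaged 33.3, 10.9 and 536 CPM.

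Prdm1 (chr10:44437177-44528501, GRCm38), which turns newborn cells from bipolar to photoreceptor fate, had 102, 72.6 and 51.7 CPM at D28, against 170, 235 and 157 CPM at D22. It fell by 1.31 on the log2 scale (SE 0.24, adjusted p = 0.0017), a call that stood whichever library was left out. Otx2, which acts above Crx in photoreceptor and bipolar precursors, had 502, 437 and 353 CPM at D28, against 1006, 921 and 533 CPM at D22, and fell by 0.93 (SE 0.23, adjusted p = 0.015). The Otx2 call was lost without D28 replicate 3 (adjusted p = 0.0783), D22 replicate 1 (0.0857) or D22 replicate 2 (0.0919). Samd7 and Samd11, partner proteins in Polycomb silencing in rods, averaged 697 ± 430 and 579 ± 335 CPM at D28, and 343 ± 78.9 and 286 ± 79.5 CPM at D22 (SD, n = 3 each), with adjusted p values of 0.10 and 0.087. DESeq2, and the 6 libraries with the replicate block, each called 3 of the 12 higher. The count was 2 without D28 replicate 3 and 0 without any other single library. With the 6 libraries alone, or without both libraries numbered 3, it was 1.

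Among genes of the outer segment and its surrounding matrix, 8 of 25 tested were called higher and 0 lower, with a median log2 fold change of 0.79. Rdh8, the outer segment dehydrogenase that reduces all-trans retinal, had 90.1, 72.1 and 68.7 CPM at D28, against 25.0, 12.5 and 17.5 CPM at D22. Its libraries of each day lay close together and far from those of the other day, and its log2 fold change was 2.07 (SE 0.29, adjusted p = 0.00023). Impg1, a proteoglycan of the matrix between photoreceptors, had 137, 146 and 50.8 CPM at D28, against 32.7, 18.1 and 12.02 CPM at D22 (log2 fold change 2.41, SE 0.47, adjusted p = 0.0033). Prph2, which bends the rim of the outer segment disc, had 1998, 1353 and 785 CPM at D28, against 851, 476 and 290 CPM at D22, a log2 fold change of 1.35 (SE 0.36, adjusted p = 0.024). Its partner Rom1 averaged 758 ± 412 CPM at D28 and 411 ± 336 CPM at D22 (SD, n = 3 each), with an adjusted p of 0.25.

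The count of 8 was 15 with the replicate number as a block. It was 14 without D22 replicate 1, 15 without D28 replicate 3, 5 without D22 replicate 2 or D28 replicate 2, 6 without D22 replicate 3 or D28 replicate 1, and 13 by DESeq2. Rdh8, Impg1 and Fam161a, a protein of the connecting cilium, kept their calls whichever single library was left out, whereas that of Prph2 was lost without D28 replicate 1 (adjusted p = 0.139), D28 replicate 2 (0.0545), D22 replicate 2 (0.118) or D22 replicate 3 (0.0882).

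At the photoreceptor ribbon synapse, where calcium entry releases glutamate, 6 of 20 genes were called higher and 0 lower, with a median log2 fold change of 0.64. Cacna1f (chrX:7607083-7635196, GRCm38), the pore of the calcium channel at the ribbon, had 115, 108 and 46.5 CPM at D28, against 17.3, 12.3 and 13.1 CPM at D22. Every D28 library lay above every D22 library, at a log2 fold change of 2.66 (SE 0.36, adjusted p = 0.00017). Its auxiliary subunit Cacna2d4 had 275, 277 and 193 CPM at D28, against 114, 88.5 and 95.3 CPM at D22 (log2 fold change 1.32, SE 0.21, adjusted p = 0.00053). Cplx4, a complexin of ribbon synapses, averaged 40.0 ± 20.8 CPM at D28 and 9.14 ± 4.96 CPM at D22 (SD, n = 3 each), and Pclo, a scaffold of the active zone, averaged 278 ± 19.4 CPM at D28 and 155 ± 14.3 CPM at D22. Ctbp2, whose Ribeye product builds the ribbon itself, averaged 169 ± 30.7 CPM at D28 and 195 ± 25.9 CPM at D22, with an adjusted p of 0.56. The count was 10 with the replicate block, 10 without D22 replicate 1, 4 without D22 replicate 2 or D28 replicate 1, and 10 by DESeq2, and Cacna1f, Cacna2d4, Cplx4 and Pclo kept their calls whichever single library was left out.

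No cone gene was called higher. Of 15 tested, 0 were called higher and 3 lower, with a median log2 fold change of -0.68. Opn1sw (chr6:29376671-29388468, GRCm38), the short-wavelength cone opsin, had 13.1, 15.9 and 4.17 CPM at D28, against 41.8, 71.9 and 24.4 CPM at D22, and fell by 2.05 on the log2 scale (SE 0.49, adjusted p = 0.012). Pde6c, the cone phosphodiesterase, had 15.6, 14.8 and 2.32 CPM at D28, against 53.4, 55.0 and 16.98 CPM at D22, and fell by 1.93 (SE 0.48, adjusted p = 0.016). Ccdc136, a coiled-coil gene, fell by 0.68 (SE 0.17, adjusted p = 0.016). In each of the 3 genes the days did not overlap.

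The other cone genes were not called. Gnat2, the cone transducin, averaged 8.34 ± 2.92 CPM at D28 and 20.9 ± 10.0 CPM at D22 (SD, n = 3 each, adjusted p = 0.082), and the thyroid receptor Thrb averaged 75.3 ± 19.4 CPM at D28 and 68.3 ± 28.4 CPM at D22. Opn1mw, the medium-wavelength opsin, had 4 counts in all at D28 and 6 at D22, so no change was detectable at this depth. Without D22 replicate 2 no cone gene was called; Opn1sw was lost also without D28 replicate 3 (adjusted p = 0.054), Pde6c without D22 replicate 1 (0.0603), and Ccdc136 without D28 replicate 2 (0.0592) or D28 replicate 3 (0.0609). With D22 replicate 2 left out the adjusted p was 0.0909, 0.085 and 0.0717 for Opn1sw, Pde6c and Ccdc136, and the fit of the 6 libraries alone called 0 of the 15. The count of 3 was 5 without D22 replicate 3, where Gnat2 was called (adjusted p = 0.0252), 4 by DESeq2 and 5 with the 6 libraries and the replicate block.

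Bipolar cell genes included the members with the highest log2 fold changes among the lists of retinal neurons. Of 26 tested, 9 were called higher and 1 lower, with a median log2 fold change of 0.95. Grm6 (chr11:50850685-50866208, GRCm38), the glutamate receptor of ON bipolar dendrites, had 20.2, 42.1 and 42.7 CPM at D28, against 0.596, 0.587 and 0.6995 CPM at D22. The D22 libraries lay together near the D18 mean of 0.432 CPM, and the log2 fold change was 5.78 (SE 0.54, adjusted p = 1.1e-05), with an adjusted p of at most 0.000111 when any single library was left out. Bhlhe23, a factor needed for rod bipolar cells, had 4.68, 9.27 and 24.7 CPM at D28, against 0.0745, 0.196 and 0 CPM at D22. Its D22 level rests on 4 counts over the 3 libraries, against 599 counts at D28, so the size of its log2 fold change of 7.04 (SE 1.01, adjusted p = 0.00025) is uncertain.

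Prkca, the kinase that marks rod bipolar cells, had 111, 117 and 160.2 CPM at D28, against 59.6, 60.9 and 59.0 CPM at D22. Its D22 libraries differed little, and it was called at a log2 fold change of 1.11 (SE 0.17, adjusted p = 0.00046). Scgn, a calcium-binding protein of some cone bipolar cells, had 9.75, 16.02 and 25.4 CPM at D28, against 2.76, 1.44 and 2.23 CPM at D22 (log2 fold change 2.99, SE 0.36, adjusted p = 4.4e-05), and Vsx1, a factor of cone bipolar cells, averaged 5.50 ± 1.36 CPM at D28 and 0.840 ± 0.279 CPM at D22 (SD, n = 3 each). Sebox, Lrtm1, Cabp5 and Car8 were the other members called higher, at log2 fold changes of 2.35, 2.25, 1.90 and 1.32, and each of these 4 calls was lost without D22 replicate 2. Trpm1, the channel that Grm6 controls, averaged 21.1 ± 12.4 CPM at D28 and 6.97 ± 2.898 CPM at D22 without overlap, but was not called (adjusted p = 0.14), and it had averaged 33.3 CPM at D18.

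The 1 member called lower was Tacr3, a tachykinin receptor of some OFF bipolar cells, which averaged 7.40 ± 1.07 CPM at D28 and 17.3 ± 2.60 CPM at D22 (SD, n = 3 each; log2 fold change -1.22, SE 0.34, adjusted p = 0.030). Only without D22 replicate 3 did that call stand when a library was left out. The count of 9 was 5 without D22 replicate 2 and 5 without both libraries numbered 3, an alternative added after the data were seen, and it was between 7 and 10 without any other single library.

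**Figure D3:**
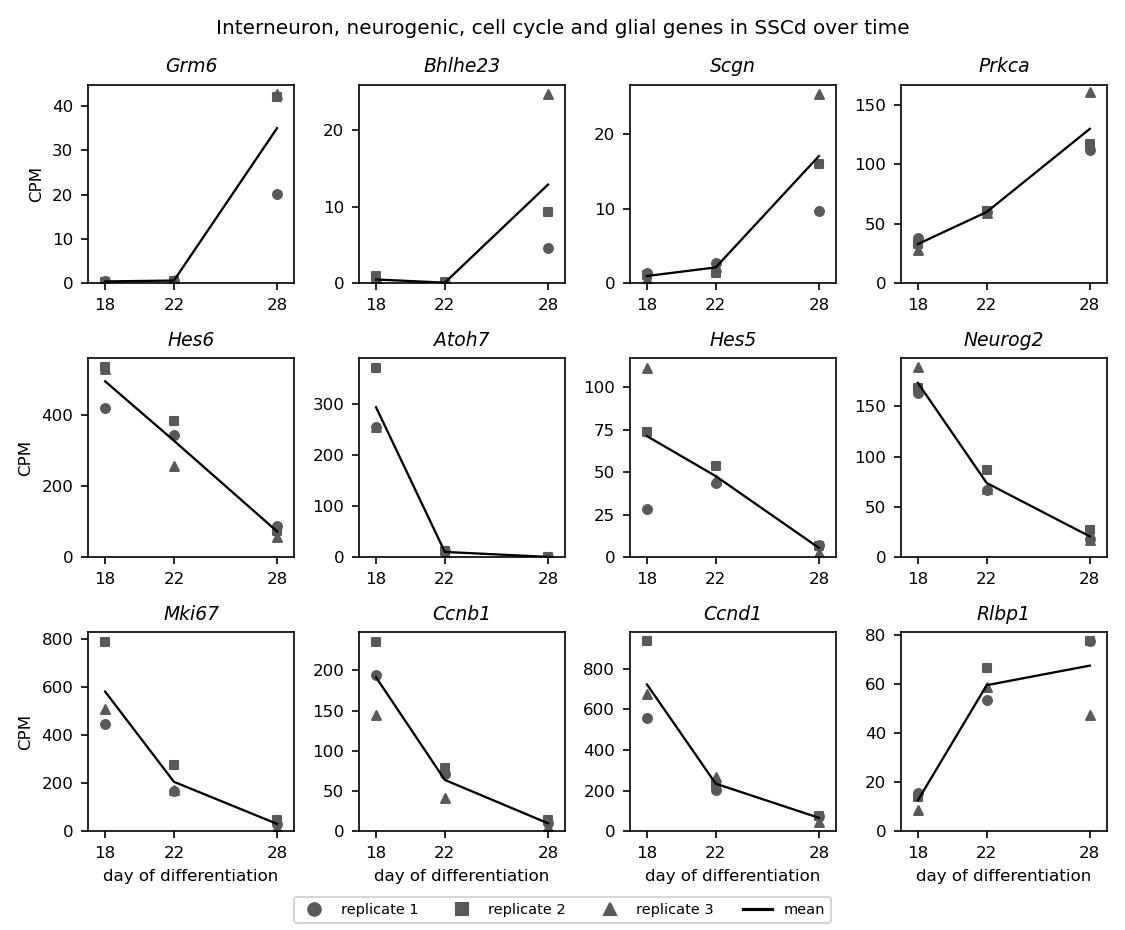
CPM of 12 genes in each SSCd library at D18, D22 and D28, with replicates marked by shape and a line through the means. The bipolar genes of the top row are highest at D28, the neurogenic and cell cycle genes are lowest at D28, and Rlbp1 overlaps between D22 and D28.

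The lists of earlier-born interneurons and ganglion cells had 2 called genes each, against 8.05% of all genes tested. In the amacrine list 2 of 20 were higher and 0 lower, with a median log2 fold change of -0.02. Gad1, which makes GABA, had 122, 160 and 282 CPM at D28, against 69.2, 77.2 and 101 CPM at D22 (log2 fold change 1.19, SE 0.30, adjusted p = 0.017), and Gjd2, which forms the gap junctions of AII amacrine cells, averaged 59.1 ± 12.7 CPM at D28 and 30.1 ± 5.61 CPM at D22 (SD, n = 3 each; adjusted p = 0.0066). Gad1 was not called without D28 replicate 3 (adjusted p = 0.132), D22 replicate 1 (0.0728) or D22 replicate 2 (0.0747), and neither gene was called without both libraries numbered 3. With the replicate block 1 amacrine gene was lower.

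In the horizontal cell list 1 of 12 was higher and 1 lower. Calb1, the calbindin of horizontal cells, had 18.0, 26.8 and 39.5 CPM at D28, against 7.08, 6.98 and 10.2 CPM at D22 (log2 fold change 1.79, SE 0.32, adjusted p = 0.0014). Ptf1a, which commits precursors to horizontal and amacrine fates, had 0.228, 0.478 and 0 CPM at D28, against 5.81, 8.61 and 4.32 CPM at D22, and had averaged 17.7 CPM at D18. It fell by 4.64 on the log2 scale (SE 0.56, adjusted p = 4.5e-05), with 12 counts in all at D28. Both calls stood whichever single library was left out, and 2 members were lower with the replicate block.

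Of 20 ganglion cell genes, 1 was higher and 1 lower, with a median log2 fold change of -0.14. Nefh, the heavy neurofilament of large axons, averaged 23.6 ± 3.28 CPM at D28 and 10.8 ± 3.80 CPM at D22 (SD, n = 3 each; log2 fold change 1.12, SE 0.24, adjusted p = 0.0055). Pou4f3, a factor of ganglion cell axons, fell by 2.29 on the log2 scale (SE 0.48, adjusted p = 0.0048), and Pou4f2, which commits cells to the ganglion fate, averaged 1.06 ± 0.711 CPM at D28 and 1.53 ± 0.491 CPM at D22, after 18.0 CPM at D18.

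Neurogenic progenitor genes fell as a group. Of 16 tested, 13 were called lower and 0 higher, with a median log2 fold change of -1.65. Hes6 (chr1:91411483-91414038, GRCm38), which promotes neuronal differentiation, had 88.8, 72.6 and 56.6 CPM at D28, against 343, 383 and 256 CPM at D22, and fell by 2.17 on the log2 scale (SE 0.26, adjusted p = 4.2e-05). Neurog2, a proneural factor, had 18.1, 27.3 and 16.8 CPM at D28, against 67.3, 86.4 and 67.9 CPM at D22, and fell by 1.83 (SE 0.21, adjusted p = 3.2e-05). Atoh7, which makes precursors competent for the ganglion fate, had 0.970, 0.777 and 0.342 CPM at D28, against 12.5, 12.4 and 6.30 CPM at D22. It fell by 3.86 (SE 0.51, adjusted p = 0.00014), and most of its decline lay earlier, since it had averaged 293 CPM at D18.

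The Notch ligands Dll1, Dll3 and Dll4 fell by 1.57, 2.14 and 2.18 on the log2 scale, and the SoxC factors Sox4 and Sox11, which act in newborn neurons, fell by 1.14 and 1.74. The days did not overlap in any of these 5 genes, and the Dll1 call was lost without D22 replicate 2 or D28 replicate 1. Insm1, a factor of newborn neurons, was one of the 3 members not called, at 92.1 ± 27.4 CPM at D28 and 107 ± 11.7 CPM at D22 (SD, n = 3 each). With a single library left out, the count of 13 lay between 9, without D22 replicate 2, and 14.

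Among markers of retinal progenitors in general, 8 of 17 were called lower and 0 higher, with a median log2 fold change of -1.14. Hes5, the Notch effector, had 7.24, 6.88 and 2.46 CPM at D28, against 43.9, 53.6 and 45.7 CPM at D22, and fell by 3.10 on the log2 scale (SE 0.60, adjusted p = 0.0030). Fgf15 had 3.08, 7.41 and 2.39 CPM at D28, against 32.7, 59.7 and 24.1 CPM at D22, after 545 CPM at D18. Ccnd1, the cyclin of retinal progenitors, had 74.3, 76.7 and 46.5 CPM at D28, against 202, 231 and 269 CPM at D22, and fell by 1.83 (SE 0.21, adjusted p = 3.7e-05). Sox2 and Six6, which progenitors share with some mature cells, fell by 1.13 and 1.26. Pax6 and Six3, which amacrine cells also express, were not called, with adjusted p values of 0.68 and 0.32. The count of 8 was 6 without D22 replicate 2 and between 7 and 8 without any other single library.

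DNA replication and mitosis genes had the highest share of called members of all lists. Of 30 tested, 27 were called lower and 0 higher, all 30 had a negative log2 fold change, and the median was -1.91. Mki67 (chr7:135689784-135716361, GRCm38), the proliferation antigen, had 29.4, 47.7 and 13.8 CPM at D28, against 167, 276 and 172 CPM at D22, and fell by 2.76 on the log2 scale (SE 0.40, adjusted p = 0.00027). The mitotic cyclins Ccnb1 and Ccnb2 averaged 9.84 ± 4.32 and 3.36 ± 1.37 CPM at D28, and 63.7 ± 19.4 and 22.7 ± 6.30 CPM at D22 (SD, n = 3 each). Top2a, which untangles replicated DNA, had 30.5, 59.2 and 23.98 CPM at D28, against 200, 292 and 158 CPM at D22, and fell by 2.52 (SE 0.35, adjusted p = 0.00021). The 6 replicative helicase genes from Mcm2 to Mcm7 fell by 0.97 to 1.69. Not called were Ccne1 and Ccne2, the cyclins of entry into S phase, and Pcna, the polymerase clamp, at log2 fold changes of -0.81, -0.10 and -0.77. The count was 27 whichever single library was left out. Mki67 was still above 10 CPM in every D28 library, and its D18 mean had been 579 CPM.

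RefSeq windows of 250 bases (GRCm38.p6) were available for 23 of these 27 genes. The letters CCAAT or their reverse complement ATTGG, the core that the factor NF-Y recognises, stood in 20 of the 23 (87.0%), against 34.5% of all promoters in the table and 36.2% of those of tested genes. The letters TTTGAA or TTCAAA, found in the cell cycle homology region of some mitotic promoters, stood in 8 of the 23 (34.8%), against 16.3% of all promoters. TAATCC stood in 0 of the 23. CCAAT and TAATCC can share bases where they adjoin. Ccnb2 (chr9:70421555-70421804, minus strand) and Top2a (chr11:99024190-99024439, minus strand) are shown because both fell and both hold CCAAT repeatedly, at 87, 54 and 21 bases before the start in Ccnb2 and at 227, 189, 149, 98, 78 and 58 bases in Top2a. Capitals mark CCAAT or ATTGG, and the windows are read as before.
Ccnb2: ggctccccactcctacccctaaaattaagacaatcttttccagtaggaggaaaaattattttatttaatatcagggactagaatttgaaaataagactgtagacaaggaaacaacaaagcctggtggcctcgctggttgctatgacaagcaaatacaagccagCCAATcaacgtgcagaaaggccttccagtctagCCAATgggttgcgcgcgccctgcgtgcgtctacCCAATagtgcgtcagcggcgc
Top2a: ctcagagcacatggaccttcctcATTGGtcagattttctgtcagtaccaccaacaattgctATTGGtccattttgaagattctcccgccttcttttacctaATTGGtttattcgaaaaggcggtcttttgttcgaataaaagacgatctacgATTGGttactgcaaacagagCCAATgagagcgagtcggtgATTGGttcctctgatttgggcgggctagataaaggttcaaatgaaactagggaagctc

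No gene of Müller glia, the last class to differentiate, was called higher. Of 23 genes tested, 0 were higher and 4 lower, with a median log2 fold change of -0.22. The 4 were Hes1, Lhx2, Dapl1 and Dkk3, at log2 fold changes of -1.14, -1.40, -1.67 and -0.64, and Hes1 and Lhx2 are also on the progenitor list. Rlbp1, which binds retinaldehyde in Müller cells, had 77.5, 77.4 and 47.3 CPM at D28, against 53.2, 66.2 and 58.8 CPM at D22, after 12.6 CPM at D18. Glul, glutamine synthetase, averaged 233 ± 32.4 CPM at D28 and 278 ± 38.1 CPM at D22 (SD, n = 3 each). Neither was called, with adjusted p values of 0.71 and 0.41. Without D22 replicate 2 none of the 4 calls stood, and without D28 replicate 1 or D28 replicate 2 only 1 did. The count called higher was 1 without D22 replicate 3 and 0 without any other single library. It was 1 with the 6 libraries alone and 4 with the 6 libraries and the replicate block.

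Genes of reactive glia had a median log2 fold change of 0.96 over 19 members, but 0 were called higher and only Socs3, the feedback inhibitor of cytokine signalling, was called lower. The count called higher stayed 0 whichever single library was left out. It was 2 with the 6 libraries alone, 6 with the 6 libraries and the replicate block, and 1 by DESeq2. Gfap, the intermediate filament of reactive Müller cells, had 28.0, 33.5 and 12.5 CPM at D28, against 4.25, 6.91 and 6.30 CPM at D22. The days did not overlap, yet its adjusted p was 0.12 at a log2 fold change of 2.08 (SE 0.79). Socs3 averaged 5.32 ± 0.320 CPM at D28 and 12.7 ± 4.48 CPM at D22 (SD, n = 3 each; adjusted p = 0.039), and was not called with the replicate block or without any single library other than D22 replicate 3.

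Among lists of cells outside the neural retina, mesenchyme, pigment epithelium and microglia had 0 called genes. The mesenchyme list had a positive log2 fold change in all 15 members, with a median of 1.75, and 0 were called. Its summed level was 336, 474 and 171 CPM at D28, against 101, 132 and 175 CPM at D22, so that D28 replicates 1 and 2 were high and D28 replicate 3 lay within the D22 range. Col1a1, a fibroblast collagen, had 37.8, 55.8 and 2.94 CPM at D28, against 5.96, 6.33 and 10.0 CPM at D22. Pigment epithelium genes summed to 372, 109 and 56.9 CPM at D28, against 350.4, 133.8 and 199.9 CPM at D22, highest in replicate 1 of each day. Microglial genes summed to 22.9, 24.3 and 24.2 CPM at D28, against 17.5, 16.9 and 18.4 CPM at D22, and 0 of the 11 tested of 15 were called; Aif1, Cx3cr1, P2ry12 and Laptm5 were too low to test, and P2ry12 was at 0 in all D22 libraries. Of 9 endothelial genes tested, Flt1 was called higher, and Egfl7 and Cldn5 lower. Cldn5, a tight junction protein, had 1 count in all at D28 and 100 at D22, whereas the Flt1 call was lost without either replicate 1, D22 replicate 3 or D28 replicate 2, and that of Egfl7 without D28 replicate 1 or 2. The part of these cells in the changes of the neural lists was not tested.

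**Figure D4:**
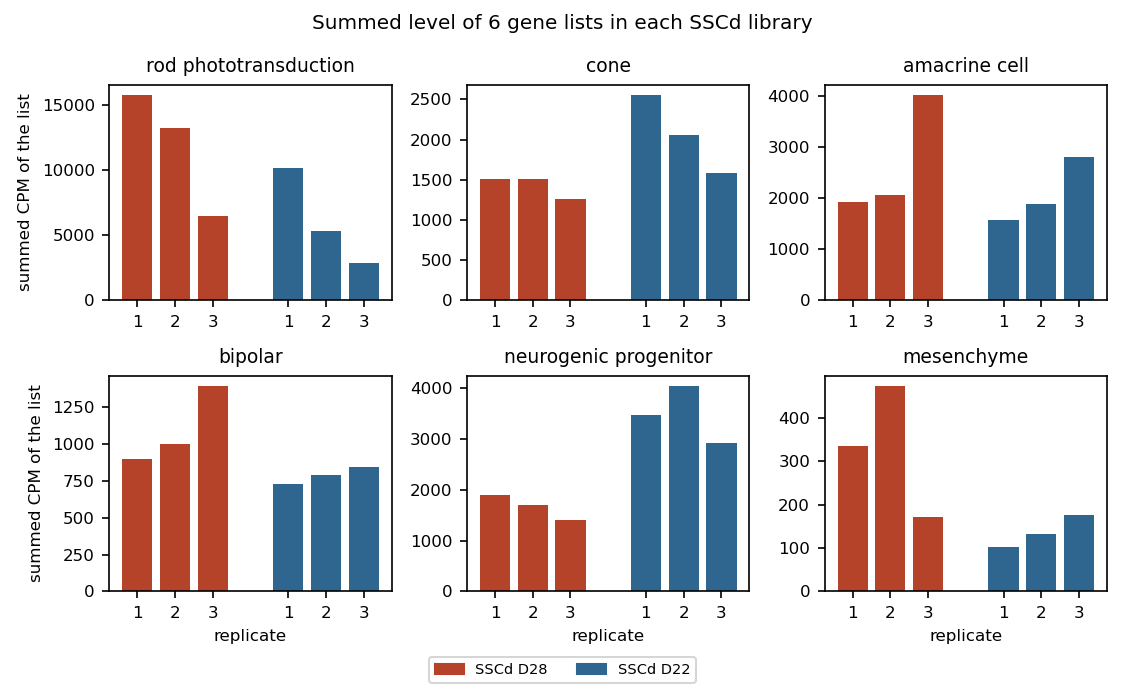
Bars give the summed CPM of all members of 6 gene lists in each library, SSCd D28 replicates 1 to 3 at the left and SSCd D22 replicates 1 to 3 at the right. Replicate 3 is lowest for rod phototransduction and highest for amacrine and bipolar genes at both days, and only D28 replicates 1 and 2 are raised for mesenchyme.

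The spread between replicates ran through the neuronal lists. Rod phototransduction genes summed to 15770, 13220 and 6462 CPM at D28, against 10130, 5343 and 2906 CPM at D22, and so overlapped between the days although each pair was higher at D28. Amacrine genes summed to 1932, 2062 and 4029 CPM at D28, against 1581, 1880 and 2814 CPM at D22. For bipolar genes the sums were 901, 1002 and 1397 CPM at D28, against 727, 789 and 846 CPM at D22, with no overlap. Neurogenic progenitor genes summed to 1886, 1693 and 1400 CPM at D28, against 3476, 4041 and 2910 CPM at D22, and DNA replication and mitosis genes to between 300 and 593 CPM at D28, against 1259 to 1880 CPM at D22, neither with any overlap.

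Chromatin, metabolic and retinoid lists differed in their share of calls. Of 20 heterochromatin and lamina genes, 0 were higher and 6 lower, among them the linker histone H1f0, which had 175, 172 and 184 CPM at D28, against 434, 382 and 300 CPM at D22 (log2 fold change -1.07, SE 0.19, adjusted p = 0.0017), and Hmga1 and Uhrf1, which proliferating cells also express, at -1.38 and -2.03. Hexokinase 1, Hk1, was the single member called of 27 hypoxia and glycolysis genes, at 555, 426 and 476 CPM at D28, against 318, 193 and 165 CPM at D22 (log2 fold change 1.11, SE 0.22, adjusted p = 0.0034). Of 14 genes of retinoic acid handling, the binding proteins Crabp1 and Crabp2 fell by 1.12 and 2.25, and the retinal reductase Dhrs3 was higher by 1.36, a call lost whichever single library was left out. The count of 6 heterochromatin genes was 3 without D28 replicate 3 or D22 replicate 2, where Hmga1 was lost.

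In the sterol synthesis list, 1 of 24 was higher and 2 lower (Acat2 and Nsdhl), and the Nsdhl call was lost with the replicate block (adjusted p = 0.0507) and without any single library other than D22 replicate 3. The Acat2 call was lost without D22 replicate 2. Of 20 ATF4 targets only Ddit3 was called, higher by 0.61, and it stayed called only without D28 replicate 2 when a library was left out. None of 25 nuclear respiratory chain genes, 13 mitochondrially encoded genes, 20 p53 targets, 17 immediate early and heat shock genes and 17 interferon genes was called at 0.05, with medians of -0.10, -0.72, -0.08, 0.21 and 0.37. The mitochondrially encoded genes summed to 36390, 36030 and 27210 CPM at D28, against 94380, 34510 and 29930 CPM at D22. Only D22 replicate 1 stood high there. Khdrbs3, which fell by 0.64, was the single call among 20 splicing regulators, lost without D22 replicate 2 or D28 replicate 1. Calls in other lists were Zic2 in the ciliary margin list and Olig2 and Dlx2 in the brain list, all lower, and Otx2 again in the choroid plexus list. The Dlx2 call was lost without D22 replicate 2, D28 replicate 1 or D28 replicate 3.

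The change over these 6 days was set against the last step of the other cultures by testing the difference between the changes. Against RWB, D25 over D22, 0 genes differed by edgeR (450 had an unadjusted p under 0.05, and DESeq2 called 5), so no gene was shown to change otherwise over 6 days in SSCd than over 3 days in RWB. Against SSCi, D32 over D25, 7 genes differed (0.0417% of those tested), 2 with a higher change in SSCd and 5 with a lower one. In SSCi the medium itself was changed at D26, between the days compared, and SSCi D25 has 2 libraries.

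Slc24a1 again was among them. It had 215, 161 and 64.4 CPM at SSCd D28, against 49.8, 27.9 and 15.9 CPM at SSCd D22, and 201, 142 and 187 CPM at SSCi D32, against 2.25 and 2.69 CPM at SSCi D25, a difference of -3.92 on the log2 scale (SE 0.60, adjusted p = 0.0151). Its levels at the later days overlapped, and its levels at the earlier days did not. Hr, a corepressor of the thyroid hormone receptor, averaged 101 ± 30.8 CPM at SSCd D28 and 72.5 ± 11.5 CPM at SSCd D22, with no call in SSCd, and 66.8 ± 4.13 CPM at SSCi D32 and 2.83 ± 0.510 CPM at SSCi D25 (SD, n = 3, 3, 3 and 2). Its difference was -4.08 (SE 0.58, adjusted p = 0.00906). Klf9, a zinc finger factor induced by thyroid hormone, averaged 103 ± 20.8 CPM at SSCd D28 and 69.1 ± 20.8 CPM at SSCd D22, and 109 ± 7.90 CPM at SSCi D32 and 13.4 ± 0.667 CPM at SSCi D25.

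**Figure D5:**
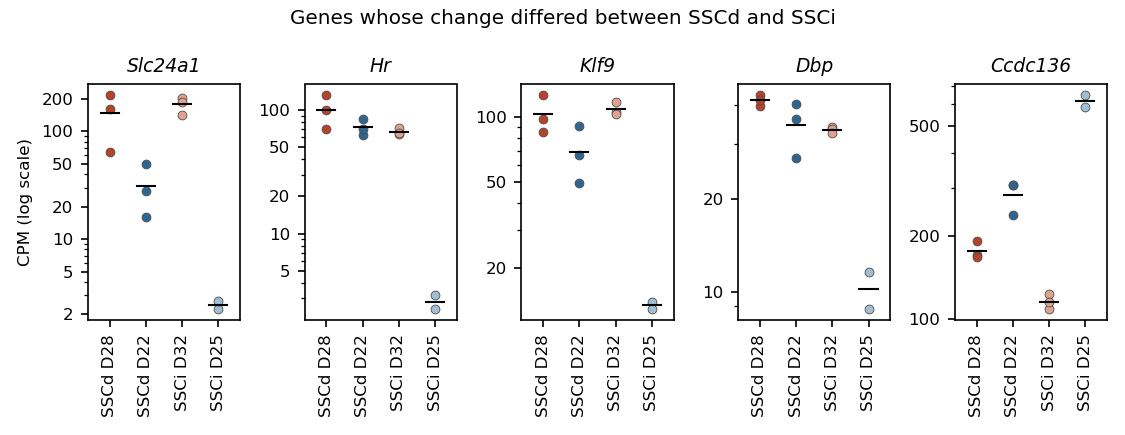
CPM on a log scale in each library of SSCd D28, SSCd D22, SSCi D32 and SSCi D25, with bars at the means. For Slc24a1, Hr, Klf9 and Dbp the SSCi D25 libraries lie below all SSCd D22 libraries, and for Ccdc136 above them.

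Dbp, a clock-controlled factor, and the cone-listed Ccdc136 were the others with log2 CPM averaging 3 or more. Dbp averaged 41.5 ± 1.65 CPM at SSCd D28 and 34.5 ± 6.85 CPM at SSCd D22, and 33.4 ± 0.712 CPM at SSCi D32 and 10.2 ± 1.95 CPM at SSCi D25. Ccdc136 averaged 177 ± 12.7 CPM at SSCd D28 and 283 ± 39.2 CPM at SSCd D22, and 116 ± 7.02 CPM at SSCi D32 and 618 ± 43.6 CPM at SSCi D25, so that it was lower at the later day in both cultures. None of the 7 differences was called without SSCi D25 replicate 1 or without SSCi D25 replicate 2, and with the replicate block only that of Slc24a1 was called (adjusted p = 0.000407). The list medians of the difference against SSCi were -0.59 for rod phototransduction, -0.57 for bipolar, 0.18 for DNA replication and mitosis and -1.39 for reactive glia genes, with 1, 0, 0 and 0 members called.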

How the data were processed

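RNA of retinal organoids was poly(A)-selected and sequenced from both fragment ends with strand kept, per the labels' protocols. Tools named, without role or order, in the submitters' processing notes are kallisto 0.42.5, edgeR 3.13.9 and limma 3.32.2, with the build GRCm38.p5. Estimated counts, unnormalized, stand in the table the authors deposited, for 33846 genes, and how transcripts were combined into genes is not given in the sources used here. Deposited CPM and transcript tables were not used. Near-identical gene copies share reads in such estimates.

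Here the estimated counts were rounded and filtered with filterByExpr by group, which left 16792 genes, and scaled by TMM. A robust quasi-likelihood fit of 9 group means over all 24 libraries in edgeR 4.0.16 under R 4.3.3 tested each contrast, and p-values were adjusted by Benjamini and Hochberg's method across the tested genes, with calls made under 0.05 (median biological coefficient of variation 25.6%). All 24 libraries entered because groups of 2 or 3 estimate the spread poorly. CPM are TMM-scaled. The prior count of 2 applies to the log2 CPM averages, whereas fold changes come from the fit with edgeR's default prior count. Each SE comes from the fold change and its F statistic. The procedure was tested on simulated counts drawn with the spread fitted here for each gene. Those counts held no effect shared by replicate number, so they cannot show how such an effect bears on the calls. Fitted changes of genes with very few counts in a group depend on the fit's prior count. Depth limits precision most for genes with few counts. The design text calls repeated experiments biological replicates.

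The rule for named genes takes a panel, the 12 highest and 12 lowest called genes averaging 3 or more in log2 CPM whose days do not overlap, up to 4 called members of each list and direction with the smallest p, and up to 5 genes of each difference; others were named after their values were seen, and some genes the rule allows are not reported here. The groups, 33 gene lists (593 genes, of which 592 are in the table) and tests were chosen with earlier results of these data known. Same-numbered libraries were taken as pairs in the replicate block and in figures. The reported test did not pair them, because the labels state no covariate. Deviations of same-numbered libraries from the day means correlated across genes at 0.30, 0.20 and 0.40 for replicates 1, 2 and 3. Libraries of different numbers had -0.30 to 0.095. Deviations from a mean of 3 libraries sum to 0, so the values for different numbers are partly forced below 0. Alternatives were DESeq2 1.42.0, its size factors, no filter, no mitochondrially encoded genes, the replicate block, the 6 libraries alone and leaving out libraries. Positions come from GENCODE M21.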

Additional observations from a re-analysis of the deposited data

Results flagged for a closer look

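Changes that differed between SSCd, D28 over D22, and SSCi, D32 over D25, by the test of the difference itself were those of Hr (-4.08 on the log2 scale), Slc24a1 (-3.92), Klf9 (-2.44), Dbp (-1.44), Ccdc136 (1.74), Pnoc (3.94) and Slc39a8 (-5.64). The adjusted p was 0.00906 for Hr and Ccdc136, 0.0151 for Slc24a1, 0.0278 for Klf9, 0.0341 for Dbp and 0.0231 for Pnoc and Slc39a8. Pnoc, a precursor of nociceptin, averaged 6.03 ± 1.22 CPM at SSCd D28 and 3.94 ± 0.925 CPM at SSCd D22, and 0.906 ± 0.155 CPM at SSCi D32 and 9.16 ± 1.89 CPM at SSCi D25 (SD, n = 3, 3, 3 and 2). Slc39a8, a metal transporter, had 0.0704 and 0 CPM at SSCi D25, so the size of its fitted difference depends on the prior count and is no bound. Against RWB, D25 over D22, the same 5 genes with log2 CPM averaging 3 or more had differences between -0.47 and 0.56, each with an adjusted p of 1. The SSCi step spans the change of medium at D26 and lasts 7 days instead of 6, and the part of either was not tested.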

How the results depend on the processing

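Of 79 genes named by the rule that were called, 55 kept the call in each of the 6 fits without 1 SSCd library. None of the 79 changed sign in the 15 alternatives. Called genes that the rule did not name are not in these counts. The count of 1351 called genes lay between 643 and 1330 in those 6 fits, the lowest without D22 replicate 2, and was 570 without both libraries numbered 1, 848 without both numbered 3 (chosen after the data were seen), 761 with the 6 libraries alone and 2672 with the 6 libraries and the replicate block. With the replicate block in the fit of all libraries 1493 genes were called. The share called higher was 37.2% as reported, 49.4% with the 6 libraries and the block, and 45.5% by DESeq2 (1971 genes). The genes that differed from SSCi numbered 7 as reported, 1 with the replicate block, 2 without both SSCd libraries numbered 1, 35 by DESeq2 and between 0 and 5 without 1 library; those that differed from RWB numbered 0, 1 with the block and 5 by DESeq2. Among uncalled genes named by the rule, the log2 fold change of 5 turned sign. Over the fits without 1 library it ranged from -4.18 to 0.29 for Opn1mw, -0.23 to 0.81 for Nr2e3 and -0.11 to 0.44 for Crx. For Sag it ranged from -0.33 to 0.74 and for Arr3 from -0.053 to 0.48. It was 0.87 for Opn1mw without both libraries numbered 1 and -0.22 for Arr3 without both numbered 3. Uncalled genes that the rule did not name turned as well, among them Pax6 (-0.57 to 0.070) and Thrb (-0.14 to 0.45). Among genes named by the rule, the block changed the calls of Socs3 and Nsdhl, given above. The cause was not tested. Where counts are few, as for Opn1mw, Bhlhe23, Ptf1a and Cldn5, depth limits the size of a change.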

Other observations

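Gene families collected by symbol, chosen after values were seen, give further groups. Of 21 Notch ligands, receptors and effectors, 12 were lower at D28 and 0 higher, with a median log2 fold change of -1.27. Nrarp, a Notch target and inhibitor, had 11.8, 13.2 and 9.70 CPM at D28, against 43.8, 56.9 and 47.2 CPM at D22 (log2 fold change -2.09, SE 0.20, adjusted p = 1.1e-05), and Notch1 averaged 78.3 ± 8.87 CPM at D28 and 240 ± 61.9 CPM at D22 (SD, n = 3 each). Hey1 averaged 41.4 ± 12.9 CPM at D28 and 49.5 ± 18.4 CPM at D22, and Jag1 7.82 ± 3.64 CPM at D28 and 3.54 ± 0.289 CPM at D22, and neither was called. The Notch1 call was lost without D22 replicate 2 or D28 replicate 2.

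Several ion channel and synaptic families had more members higher than lower at D28, and the 17 ionotropic glutamate receptor genes had 1 of each. Of 78 potassium channel genes 8 were higher and 3 lower, with a median log2 fold change of 0.68, and of 24 calcium channel genes 4 were higher and 0 lower. Kcnma1, the large-conductance potassium channel, had 37.0, 48.5 and 77.4 CPM at D28, against 16.7, 17.7 and 29.5 CPM at D22 (log2 fold change 1.35, SE 0.25, adjusted p = 0.0020). Of 14 GABA-A receptor genes 3 were higher, and Gabra3 averaged 49.5 ± 21.6 CPM at D28 and 21.3 ± 4.90 CPM at D22 (SD, n = 3 each). Syt1, the calcium sensor of vesicle release, had 635, 610.5 and 895.5 CPM at D28, against 393, 324 and 345 CPM at D22 (log2 fold change 1.01, SE 0.16, adjusted p = 0.00057). Kinesins divided: 12 of 41 were lower, among them the mitotic Kif4 and Kif11, and 2 were higher, Kif1b, which carries axonal cargo, and Kif26b. The Kif1b call was lost whichever single library was left out, and that of Kif26b without D22 replicate 1, D22 replicate 2 or D28 replicate 3.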
